A study of Bos taurus with 9 samples.

Results

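The HOX genes were followed through the conversion of bovine fibroblasts into adipocyte-like cells. The members were the rows of the expression table whose whole symbol was HOXA, HOXB, HOXC or HOXD plus digits, and 31 of 21512 genes met this rule. Another 8 HOX genes carry a symbol written partly in lower case, lie outside the rule and are given apart: HOXA7, HOXB6, HOXC5, HOXC6, HOXC8, HOXC9, HOXD1 and HOXD9. By NCBI Gene ID the table thus held 39 HOX genes. After genes with low counts were removed, 19 of the 31 members were tested among 14020 genes.

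HOX genes encode homeodomain transcription factors that give cells their position along the body. They lie in clusters named HOXA to HOXD, and genes with the same number in different clusters are called paralogues. Low-numbered genes are active towards the head, middle numbers in the trunk and high numbers towards the tail, the far limb and the genital region. Fibroblasts of adult skin keep a HOX pattern that marks the part of the body they came from. Polycomb proteins hold HOX genes silent outside their domain, Trithorax proteins keep them active, and the low-numbered genes are classical targets of retinoic acid receptors.

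BEFs are fibroblasts grown out of the margin of the bovine ear, sampled on day 0 in serum-containing medium. CiADCs-3d and CiADCs-6d are the same kind of cells after 3 and 6 days in N2B27 medium with RepSox, which blocks the TGF-beta type I receptor kinase, VPA, which inhibits histone deacetylases, and TTNPB, which activates retinoic acid receptors. All groups are labelled wild type, and each had 3 samples, 9 in all. No untreated culture of day 3 or 6 is among the samples used here, so compounds, medium and culture time cannot be told apart. Neither the labels nor the methods say whether the samples of a group came from separate animals or separate inductions, so a p-value measures only the spread between these samples.

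The library totals were 18509244 to 24071580 estimated reads. The 31 HOX genes took few of them, between 368 and 532 per BEFs library, 899 to 1083 per CiADCs-3d library and 973 to 1210 per CiADCs-6d library. Scaled to library totals, as CPM, this was 16.0 to 22.1 in BEFs, 43.3 to 50.2 in CiADCs-3d and 48.3 to 57.0 in CiADCs-6d. For all 39 HOX genes it was 46.4 to 53.9, 84.9 to 96.4 and 77.3 to 90.0 CPM in these groups. The 10 fibroblast markers, among them the collagen genes COL1A1 and COL1A2, were detected in the table and summed to 16903 to 17177 FPKM (fragments per kilobase of gene, scaled to the library size) in BEFs, 5940 to 8102 in CiADCs-3d and 3981 to 5051 in CiADCs-6d. VIM, COL1A1 and COL1A2 held most of the BEFs sum, at 5206, 4528 and 3478 FPKM on average. They and LUM were called lower on both days, and THY1 on day 6 only. The other markers were not called, and at an adjusted p under 0.05 alone 1 stood higher on each day. The median log2 fold change of the list was -0.15 on day 3 and -0.85 on day 6. The 7 adipocyte markers summed to 20.7 to 24.9, 12.1 to 26.1 and 9.02 to 10.1 FPKM on days 0, 3 and 6, with ADIPOQ at 0.42, 1.87 and 1.55 FPKM on average and FABP4 at 17.2, 8.58 and 1.40. FABP4 held most of the BEFs sum. The members went both ways: on each day as many were called higher, among them ADIPOQ, as lower, among them FABP4. The 5 endothelial markers summed to 2.29 to 3.38, 36.7 to 52.4 and 23.5 to 37.4 FPKM, with VWF at 0.86, 41.2 and 27.8 FPKM on average. Nearly all of the induced sum was VWF, while PECAM1 averaged 1.29, 0.89 and 0.83 FPKM and CDH5 and KDR were below the low-count limit. The 5 cartilage markers summed to 47.7 to 48.9, 11.5 to 14.1 and 8.99 to 11.8 FPKM, with ACAN called lower and COL2A1 called higher on both days. PTPRC of blood cells, MYOD1 and MYOG of muscle, DCT and TYR of melanocytes and ELAVL4 of neurons had no count. Other markers of these lists did, and CD68 of macrophages, at 0.46, 2.98 and 5.12 FPKM on average, MYH3 and SNAP25 were called higher on both days, and DES, MAP2 and TUBB3, at 23.5, 5.09 and 5.26 FPKM, were called lower. The part of these shifts in the HOX results was not tested, and in such bulk samples more cells that use a gene cannot be told apart from more RNA per cell.

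In BEFs the HOX genes were expressed at a low level. The median of the 19 tested members was 0.38, 0.77 and 1.16 FPKM on days 0, 3 and 6, whereas the median of all tested genes was 7.09, 7.24 and 7.46. HOXB7 ranked first in BEFs at 3.90 FPKM, followed by HOXC10, HOXA2, HOXA4, HOXA5, HOXC4 and HOXD4. HOXA5 ranked first on days 3 and 6, at 7.45 and 7.87 FPKM. The number of members with a mean of at least 1 FPKM was 3, 6 and 10 on these days. FPKM divides by gene length, and the length implied by the deposited values was 687 bases for HOXB7 against 1652 for HOXC10 and 7065 for HOXA6, so the order depends on those lengths. HOXB7 had 49 to 71 counts in BEFs and HOXC10 had 37 to 59.

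**Figure D1:**
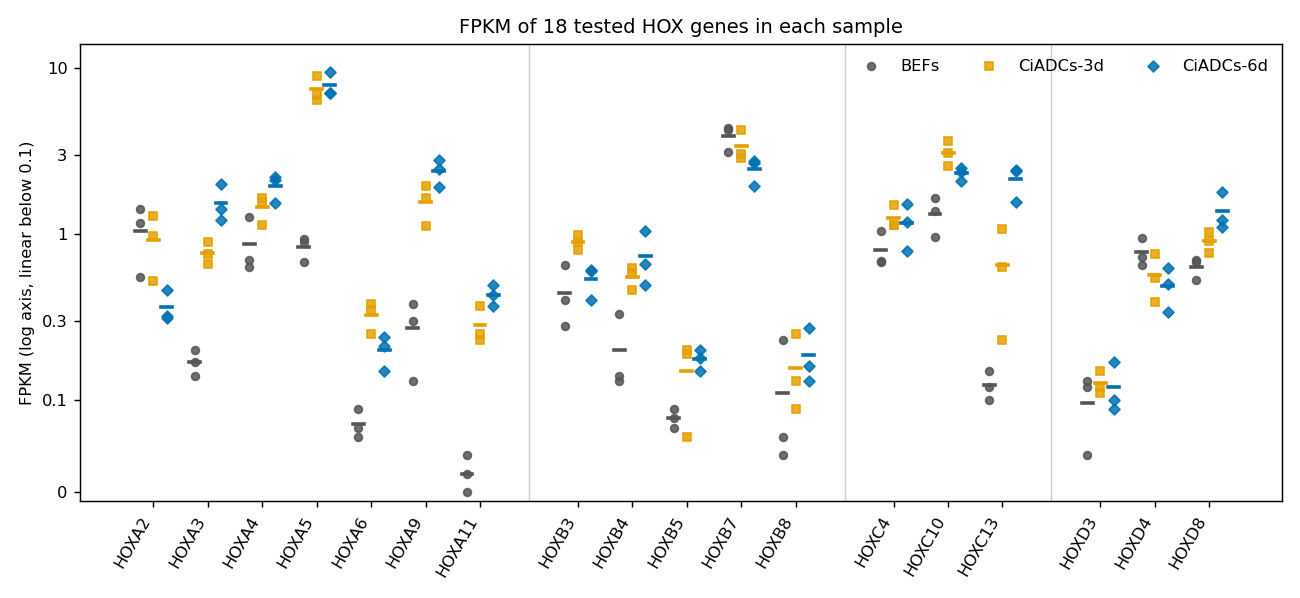
FPKM of 18 tested HOX genes in each sample (vertical axis logarithmic above 0.1 and linear below), ordered by cluster and paralogue number. Each point is 1 sample and each bar the mean of 3; HOXA5 stood at 6.42 to 9.50 FPKM in all 6 CiADCs samples and at 0.68 to 0.94 in the BEFs.

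The first question was which HOX genes changed during induction. In CiADCs-3d, 8 of the 19 tested members rose against BEFs and none fell, at an adjusted p (edgeR, Benjamini-Hochberg) under 0.05 and a log2 fold change of at least 1. The 8 were HOXA3, HOXA5, HOXA6, HOXA9, HOXA11, HOXB4, HOXC10 and HOXC13. Of all tested genes, 28.1% were called, 18.2% higher and 9.94% lower. At an unadjusted p under 0.05 there were 11 members, none of them lower, and DESeq2 called 9, all higher. In CiADCs-6d, 10 members rose against BEFs, among them HOXA3, HOXA4, HOXA5, HOXA6, HOXA9, HOXA11, HOXB4, HOXC13 and HOXD8. HOXA2 and HOXD4 fell. Of all tested genes 35.3% were called here, 21.9% higher and 13.4% lower. Both comparisons share the BEFs samples. HOXA11 and HOXC13 had under 10 counts in every BEFs library. They and other called members, among them HOXA3, HOXA6, HOXA9 and HOXB4, met the low-count limit only with the help of induced samples. That favours a higher value there, so the counts and medians of members, and the adjusted p of these genes, are a description. The median log2 fold change of the 19 was 0.94 for CiADCs-3d and 1.12 for CiADCs-6d, against 0.01 and 0.03 over all tested genes.

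Few HOX genes are far above the low-count limit, and the counts of calls depended on how low values were treated. With limma on log2(FPKM + 1), which shrinks the differences of genes below 1 FPKM, 2 members were called in CiADCs-3d and 4 in CiADCs-6d. HOXA5 was called higher in both comparisons under all 22 alternatives. HOXA9 was called higher under the 21 that tested it, but a filter of at least 10 counts in every sample left it out. It met the low-count limit only with the help of induced samples, so for HOXA9 these calls are a description.

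The HOXA cluster held 5 of the 8 members called in CiADCs-3d. Of these 5 only HOXA5 met the low-count limit in BEFs alone. Over its 8 tested members the median log2 fold change was 2.13 in CiADCs-3d and 2.32 in CiADCs-6d. Among the 11 tested members of the other clusters, 3 rose in CiADCs-3d (27.3%), where 18.2% of all tested genes rose. With the HOX genes of partly lower-case symbols it was 3 of 16 (18.8%), near that share. The difference between clusters was not tested.

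HOXA2, which sets the identity of the second pharyngeal arch and is needed for the external ear, fell on day 6. It stood at 1.16, 1.42 and 0.55 FPKM in BEFs, 0.52, 1.29 and 0.97 in CiADCs-3d and 0.31, 0.46 and 0.32 in CiADCs-6d. All day 6 samples lay below all BEFs, with a log2 fold change of -1.55 ± 0.46 (SE, adjusted p = 0.0105), whereas on day 3 the groups overlapped (-0.17 ± 0.41). Without BEFs replicate 2 the day 6 value was -1.28 and the call was lost (adjusted p 0.00355 to 0.0502 over 21 alternatives).

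HOXA3, needed for the thymus and parathyroid, stood at 0.20, 0.14 and 0.17 FPKM in BEFs, 0.66, 0.90 and 0.76 in CiADCs-3d and 2.01, 1.41 and 1.22 in CiADCs-6d. The 3 groups did not overlap. The rise was 4.58-fold on day 3 (log2 2.19 ± 0.32, adjusted p = 8.48e-05) and 8.86-fold in CiADCs-6d (log2 3.15 ± 0.31, adjusted p = 2.28e-06). HOXA4 stood at 1.27, 0.70 and 0.63 FPKM in BEFs, 1.14, 1.65 and 1.55 in CiADCs-3d and 2.22, 1.53 and 2.13 in CiADCs-6d. The day 3 log2 fold change was 0.73 ± 0.32, which did not pass the test (adjusted p = 0.0653) but was called at 1.10 without BEFs replicate 1 (adjusted p = 0.0150), and the day 6 value was 1.15 ± 0.31 (adjusted p = 0.00624). Leaving out BEFs replicate 2 or 3 brought the day 6 value just under the fold limit, to 0.998 or 0.96.

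HOXA5, which patterns the lung and the vertebrae of the neck and chest, was the member with the highest level after induction. It was measured at 0.94, 0.90 and 0.68 FPKM in BEFs, 9.01, 6.42 and 6.91 in CiADCs-3d and 7.07, 9.50 and 7.04 in CiADCs-6d. It rested on 209 to 325 counts in the induced samples and 24 to 34 in BEFs. The log2 fold change was 3.13 ± 0.22 in CiADCs-3d (8.78-fold, adjusted p = 1.40e-07) and 3.19 ± 0.22 in CiADCs-6d (9.12-fold, adjusted p = 9.40e-08). HOXA6 stood at 0.06, 0.09 and 0.07 FPKM in BEFs, 0.38, 0.35 and 0.25 in CiADCs-3d and 0.24, 0.21 and 0.15 in CiADCs-6d. It rose by log2 2.07 ± 0.32 on day 3 (adjusted p = 0.000148) and 1.35 ± 0.33 on day 6 (adjusted p = 0.00334). In the RefSeq annotation HOXA3 overlaps HOXA4 and HOXA5, and HOXA5 overlaps HOXA6. No source states that the counting used the strand, so reads of these 4 genes may have been shared among them. Their summed counts were 69 to 101 in BEFs, 373 to 413 in CiADCs-3d and 354 to 489 in CiADCs-6d. The sum, added after the data were seen, rose by log2 2.30 ± 0.17 in CiADCs-3d (adjusted p = 1.80e-07) and 2.47 ± 0.17 in CiADCs-6d (adjusted p = 7.71e-08). In the induced samples HOXA5 held the most of these counts, so separate rises of HOXA3, HOXA4 and HOXA6 are uncertain if reads were shared.

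HOXA9, a regulator of blood stem cells that is overexpressed in many leukaemias, stood at 0.38, 0.30 and 0.13 FPKM in BEFs, 1.94, 1.12 and 1.64 in CiADCs-3d and 1.91, 2.47 and 2.81 in CiADCs-6d. Every induced sample lay above every BEFs sample. The rise was log2 2.51 ± 0.36 in CiADCs-3d (5.70-fold, adjusted p = 7.59e-05) and 3.11 ± 0.36 in CiADCs-6d (8.63-fold, adjusted p = 8.38e-06). HOXA11, which shapes the forearm and the uterus, was almost silent in BEFs, with 2, 1 and 0 counts, against 10, 12 and 20 in CiADCs-3d and 18, 21 and 21 in CiADCs-6d. Relative to the TMM-scaled library sizes the summed counts were 15.1 times higher in CiADCs-3d (95% counting interval 4.83 to 76.3) and 21.9 times higher in CiADCs-6d (7.15 to 109). The adjusted p were 0.000354 and 6.33e-05, but HOXA11 met the low-count limit only through the induced samples, so that it had to differ.

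**Figure D2:**
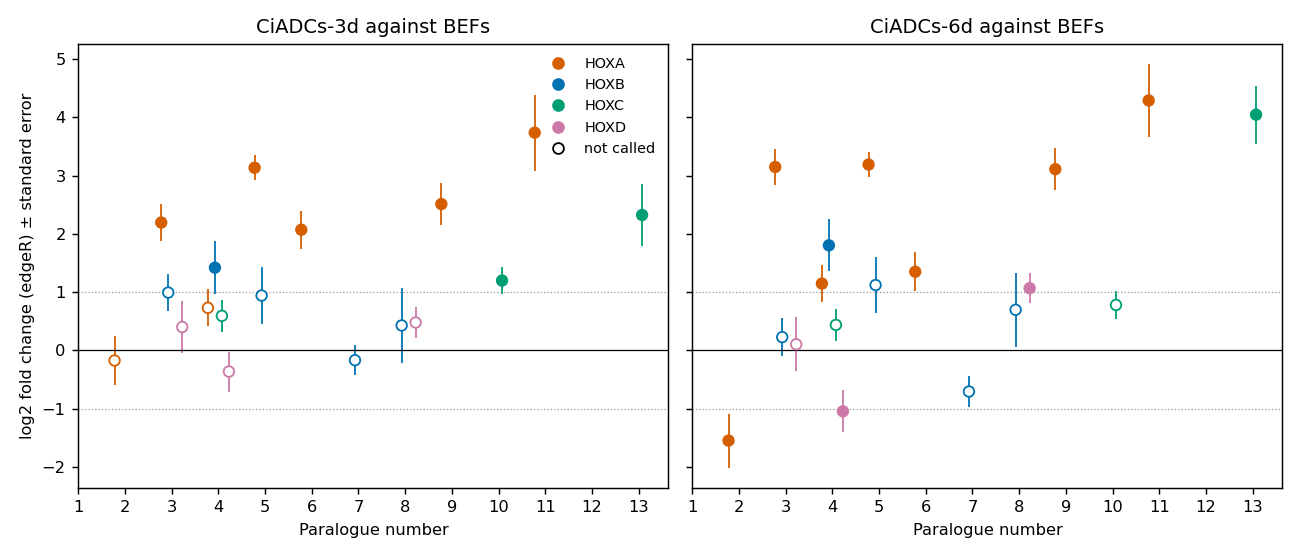
Log2 fold change with its standard error (vertical axis) against paralogue number (horizontal axis) for 18 tested HOX genes, coloured by cluster, with CiADCs-3d against BEFs on the left and CiADCs-6d against BEFs on the right; filled points were called and dotted lines mark a log2 fold change of 1 either way. HOXA11 stood highest in both, at 3.74 and 4.29, and HOXA2 lowest on day 6 at -1.55.

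In the HOXB cluster only HOXB4 was called among 5 tested members, higher on both days. Over all tested genes the share called higher was 18.2% on day 3 and 21.9% on day 6. The HOXB count was not tested against these shares. HOXB4, known for expanding blood stem cells, stood at 0.14, 0.33 and 0.13 FPKM in BEFs, 0.62, 0.58 and 0.46 in CiADCs-3d and 0.49, 0.66 and 1.05 in CiADCs-6d. It rose by log2 1.42 ± 0.46 on day 3 (adjusted p = 0.0174) and 1.80 ± 0.45 on day 6 (adjusted p = 0.00333). The day 3 call was lost without BEFs replicate 1 or 3, where the values were 1.22 and 1.19 (adjusted p 0.00719 to 0.0688 over 19 alternatives). HOXB3 stood at 0.28, 0.65 and 0.40 FPKM in BEFs, 0.80, 0.90 and 0.99 in CiADCs-3d and 0.60, 0.40 and 0.61 in CiADCs-6d. Its day 3 value of 0.99 ± 0.32 (adjusted p = 0.0176) fell just short of the fold limit, which it passed with DESeq2 at 1.01, and its day 6 value was 0.23 ± 0.33.

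HOXB7 had the highest FPKM of the members in BEFs, 4.36, 4.24 and 3.11, with 3.02, 2.89 and 4.23 in CiADCs-3d and 2.74, 2.68 and 1.96 in CiADCs-6d. On day 6 all samples lay below all BEFs, and the log2 fold change of -0.71 ± 0.27 passed the adjusted p (0.0323) but not the fold limit. HOXB5 and HOXB8 did not pass the test in either comparison. HOXB5 stood at 0.09, 0.08 and 0.07 FPKM in BEFs, 0.20, 0.06 and 0.19 in CiADCs-3d and 0.15, 0.18 and 0.20 in CiADCs-6d, with log2 fold changes of 0.94 ± 0.49 (adjusted p = 0.115) and 1.12 ± 0.48 (adjusted p = 0.0560). Without CiADCs-3d replicate 2 it was called on both days, at 1.298 (adjusted p = 0.0276) and 1.11 (adjusted p = 0.0320), and on day 6 also with library totals (1.16, adjusted p = 0.0498) and with only the groups compared (1.13, adjusted p = 0.0282). HOXB8 stood at 0.06, 0.23 and 0.04 FPKM in BEFs, 0.25, 0.13 and 0.09 in CiADCs-3d and 0.13, 0.27 and 0.16 in CiADCs-6d, with log2 fold changes of 0.43 ± 0.65 and 0.70 ± 0.63. Without BEFs replicate 2 these were 1.47 and 1.73 (adjusted p = 0.106 and 0.0501).

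HOXB3 overlaps HOXB4, HOXB5 and HOXB6 in RefSeq. The sum of these 4 genes, of which HOXB6 held the most counts, gave log2 0.48 ± 0.16 in CiADCs-3d (adjusted p = 0.0236) and -0.20 ± 0.16 in CiADCs-6d (adjusted p = 0.309), so the rise of HOXB4 is uncertain if reads were shared.

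Of the HOXC cluster 3 members were tested, and all had positive log2 fold changes. HOXC13, which drives hair and nail keratins, was the most changed. It stood at 0.10, 0.12 and 0.15 FPKM in BEFs, 1.08, 0.23 and 0.63 in CiADCs-3d and 1.56, 2.45 and 2.40 in CiADCs-6d. The 3 groups did not overlap, though the day 3 samples spread from 11 to 47 counts. The rise was log2 2.32 ± 0.53 in CiADCs-3d (adjusted p = 0.00249) and 4.05 ± 0.50 in CiADCs-6d (16.5-fold, adjusted p = 1.54e-05). The 8 keratinocyte markers, all detected, summed to 26.0 to 36.7 FPKM in BEFs, 41.9 to 51.3 in CiADCs-3d and 43.1 to 48.6 in CiADCs-6d, with KRT10 and EPCAM below the low-count limit. The members went both ways on day 3: CDH1 averaged 10.5, 32.2 and 21.8 FPKM on days 0, 3 and 6, while KRT5 was called lower on day 3 (log2 -1.04 ± 0.25, adjusted p = 0.00341) and KRT14 stood at log2 -0.96 ± 0.39 (adjusted p = 0.0488). On day 6 these 2 were at 0.04 ± 0.24 and -0.21 ± 0.37, and no marker of the list was called lower. Of the 6 tested, 3 were called higher on each day, CDH1 among them, where 18.2% and 21.9% of all tested genes were. Their part in the HOXC13 result was not tested.

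HOXC10, which patterns the hindlimb segment of the spinal cord in the mouse, stood at 1.64, 1.37 and 0.96 FPKM in BEFs, 3.64, 2.58 and 3.08 in CiADCs-3d and 2.1, 2.36 and 2.5 in CiADCs-6d. All induced samples lay above all BEFs. It rose by log2 1.20 ± 0.23 in CiADCs-3d (adjusted p = 0.000764). In CiADCs-6d the log2 fold change of 0.78 ± 0.24 passed the adjusted p (0.0109) but not the fold limit. HOXC4 stood at 1.04, 0.69 and 0.68 FPKM in BEFs, 1.13, 1.5 and 1.13 in CiADCs-3d and 0.79, 1.52 and 1.18 in CiADCs-6d, and its log2 fold changes of 0.59 ± 0.27 and 0.44 ± 0.27 did not pass the test.

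The HOXD cluster had 3 tested members. HOXD8 stood at 0.68, 0.70 and 0.53 FPKM in BEFs, 1.03, 0.77 and 0.91 in CiADCs-3d and 1.11, 1.79 and 1.22 in CiADCs-6d. Both induced groups lay above the BEFs, with log2 fold changes of 0.48 ± 0.27 (adjusted p = 0.142) on day 3 and 1.07 ± 0.26 (adjusted p = 0.00314) on day 6. The day 6 value fell under the fold limit without BEFs replicate 3 (0.95) or CiADCs-6d replicate 2 (0.84). HOXD4, a paralogue of HOXA4 and HOXB4, fell on day 6. It stood at 0.95, 0.73 and 0.65 FPKM in BEFs, 0.39, 0.76 and 0.54 in CiADCs-3d and 0.62, 0.50 and 0.34 in CiADCs-6d. The log2 fold change was -0.36 ± 0.34 on day 3 and -1.05 ± 0.36 on day 6 (adjusted p = 0.0218). The day 6 call was lost without BEFs replicate 1 (-0.95) and without replicate 2 (-1.03) or 3 (-0.87) of CiADCs-6d, with adjusted p of 0.00576 to 0.0785 over 20 alternatives. HOXD3 stood at 0.04, 0.12 and 0.13 FPKM in BEFs, 0.11, 0.12 and 0.15 in CiADCs-3d and 0.17, 0.09 and 0.10 in CiADCs-6d, and did not pass the test (0.40 ± 0.45 and 0.11 ± 0.46). HOXD3 and HOXD4 overlap in RefSeq, and their sum did not pass the test in CiADCs-6d (log2 -0.61 ± 0.30, adjusted p = 0.0857).

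The remaining 12 members had too few counts to be tested. HOXB1, HOXB13, HOXC12 and HOXD12 had no count in any library, which allows a level of up to 0.125 to 0.162 CPM per library. HOXD10, HOXD11, HOXD13 and HOXC11 had at most 1, 2, 6 and 3 counts in a library, and the 6 of HOXD13 came from CiADCs-6d replicate 2. HOXA10 had 1 to 4 counts and HOXA13, which patterns digits and the genital tract, 1 to 19, the highest also in CiADCs-6d replicate 2. HOXB2, which acts in the hindbrain, had 3 to 13 counts per library and 0.11 to 0.41 FPKM. HOXB9 had 0, 2 and 2 counts in BEFs, 4, 4 and 8 in CiADCs-3d and 4, 16 and 11 in CiADCs-6d. Its summed counts relative to the TMM-scaled library sizes were 4.32 times higher in CiADCs-3d than in BEFs (counting interval 1.39 to 17.8) and 8.49 times higher in CiADCs-6d (3.00 to 33.1). Without the low-count filter HOXB9 was called in CiADCs-6d, at log2 2.96 ± 0.84 (adjusted p = 0.00653). HOXB9 overlaps HOXB8 in RefSeq, and the sum of both rose in CiADCs-6d by log2 1.40 ± 0.55 (adjusted p = 0.0398).

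Among the 8 HOX genes with partly lower-case symbols 6 were tested. HOXA7 stood at 0.48, 0.42 and 0.48 FPKM in BEFs, 1.38, 2.18 and 1.60 in CiADCs-3d and 0.83, 0.81 and 0.95 in CiADCs-6d. It rose by log2 1.88 ± 0.26 in CiADCs-3d (adjusted p = 6.04e-05), and its CiADCs-6d value of 0.86 ± 0.27 (adjusted p = 0.0146) was under the fold limit. HOXB6 had the most counts of any HOX gene in total, though not in CiADCs-6d replicate 2, where HOXA5 had more, with 349 to 407 in BEFs, 329 to 694 in CiADCs-3d and 226 to 300 in CiADCs-6d. HOXB6, HOXC6, HOXC8, HOXC9 and HOXD9 did not pass the test against BEFs, with log2 fold changes of 0.23 to 0.61 in CiADCs-3d and -0.47 to 0.98 in CiADCs-6d. Without BEFs replicate 3, HOXD9 was at 1.28 in CiADCs-3d (adjusted p = 0.0554) and was called in CiADCs-6d, at 1.64 (adjusted p = 0.0150). HOXC5 had 1 to 9 counts, and HOXD1 had none. Over all 39 HOX genes, of which 25 were tested, 9 rose in CiADCs-3d (36.0%), and in CiADCs-6d 10 rose and 2 fell (48.0%). Of all tested genes, 28.1% and 35.3% were called either way.

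The sums over each cluster put these changes together. The 10 HOXA members summed to 3.73 ± 1.08, 13.3 ± 1.15 and 16.1 ± 0.86 FPKM on days 0, 3 and 6 (SD, n = 3 each). The 9 HOXB members summed to 4.94 ± 0.94, 5.53 ± 0.84 and 4.76 ± 0.25 FPKM, and these means differed by less than the largest SD. The 5 HOXC members summed to 2.28 ± 0.50, 5.05 ± 0.73 and 5.67 ± 1.07 FPKM, and the 7 HOXD members to 1.52 ± 0.19, 1.61 ± 0.06 and 2.06 ± 0.42. HOXA thus held 29.5% ± 3.08, 52.2% ± 2.31 and 56.4% ± 1.68 of the FPKM of the 31 members, and HOXB 39.8% ± 3.34, 21.7% ± 3.20 and 16.7% ± 0.98. HOXA5 alone was 7.45 of the 13.3 FPKM of HOXA on day 3. The shares were lower for HOXA over all 39 HOX genes, at 21.7% ± 2.71, 42.5% ± 3.06 and 47.2% ± 1.75. There HOXB held 39.6% ± 2.25, 25.1% ± 4.33 and 18.9% ± 0.90, and HOXC 29.9% ± 2.18, 27.1% ± 1.00 and 27.4% ± 2.17.

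**Figure D3:**
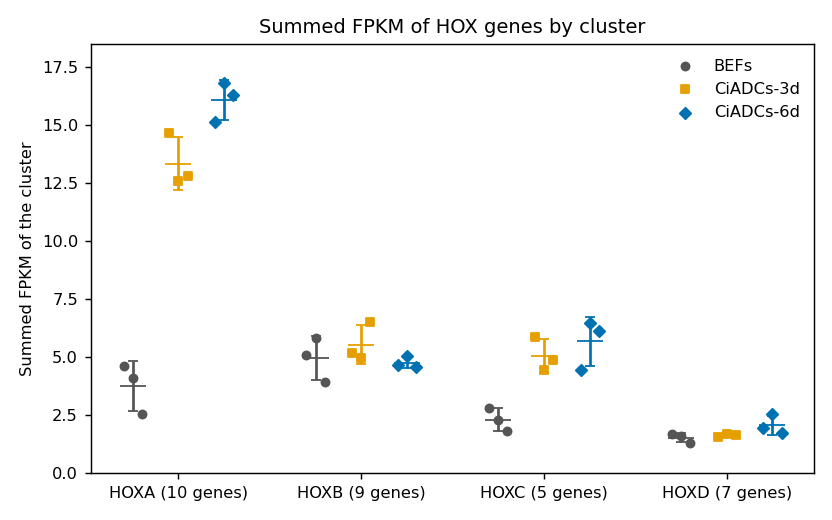
Summed FPKM (vertical axis) of the members of each HOX cluster in each sample, with the mean and SD of 3 samples. HOXA stood at 12.6 to 16.8 FPKM in the induced samples and 2.52 to 4.59 in BEFs, while the HOXB sums of the 3 groups overlapped.

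Position within a cluster was compared with the size of the change as a description across genes, which are not independent and in part overlap. Over the 8 tested HOXA members, Spearman's rho between paralogue number and log2 fold change was 0.81 in CiADCs-3d and 0.52 in CiADCs-6d. Over the 5 tested HOXB members it had the opposite sign, -0.8 and -0.2, and over all 19 members it was 0.49 and 0.39. With the genes of partly lower-case symbols it was 0.73 and 0.37 for HOXA, -0.77 and -0.37 for HOXB, and 0.30 and 0.21 over all 25. HOXA11 had the highest number and the largest change of the tested HOXA members, and it met the low-count limit only through induced samples. So did HOXA3, HOXA6 and HOXA9. HOXA10 and HOXA13 did not pass that limit and are not in these values. Without the filter they stood at log2 0.39 ± 1.05 and 0.93 ± 0.77 in CiADCs-3d. In CiADCs-6d they stood at 1.06 ± 0.98 and 0.97 ± 0.76. The values of rho thus describe only the members that passed the filter. In CiADCs-3d the HOXA genes numbered 3, 5, 6, 9 and 11 were called. Paralogues of number 4 differed in direction on day 6: HOXA4 and HOXB4 rose, HOXD4 fell, and HOXC4 was not called.

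The next question was what changed between days 3 and 6. Of the 19 members, HOXC13 rose and HOXA2 fell in CiADCs-6d against CiADCs-3d, where 7.31% of all tested genes were called, 4.09% higher and 3.22% lower. The median log2 fold change was 0.18, against 0.01 over all tested genes. HOXC13 was measured at 78, 122 and 105 counts in CiADCs-6d against 47, 11 and 35 in CiADCs-3d, and it rose by log2 1.72 ± 0.41 (adjusted p = 0.00932). HOXA2 had 9, 13 and 8 counts in CiADCs-6d against 13, 36 and 31 in CiADCs-3d, which gave a log2 fold change of -1.37 ± 0.47 (adjusted p = 0.0472). That call was lost in 7 of 9 fits that left out a sample, with values of -1.69 to -1.08 over these 9 and adjusted p of 0.0151 to 0.164 over 21 alternatives. Only BEFs replicate 3 and CiADCs-3d replicate 1 could be left out without losing it. HOXA3 was higher in all CiADCs-6d than in all CiADCs-3d samples, with a log2 fold change of 0.95 ± 0.26 (adjusted p = 0.0186) just under the fold limit, which it passed without CiADCs-3d replicate 2 (1.09) or CiADCs-6d replicate 3 (1.05). HOXA5 differed by 0.05 ± 0.18 (adjusted p = 0.848).

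Of the genes with partly lower-case symbols HOXA7 fell between these days, at log2 -1.02 ± 0.25 (adjusted p = 0.0110), a call lost without CiADCs-3d replicate 2 (-0.81) or CiADCs-6d replicate 2 (-0.99). HOXB6 and HOXC9 passed the adjusted p but not the fold limit, at -0.78 ± 0.18 (adjusted p = 0.00988) and -0.70 ± 0.20 (adjusted p = 0.0236).

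**Figure D4:**
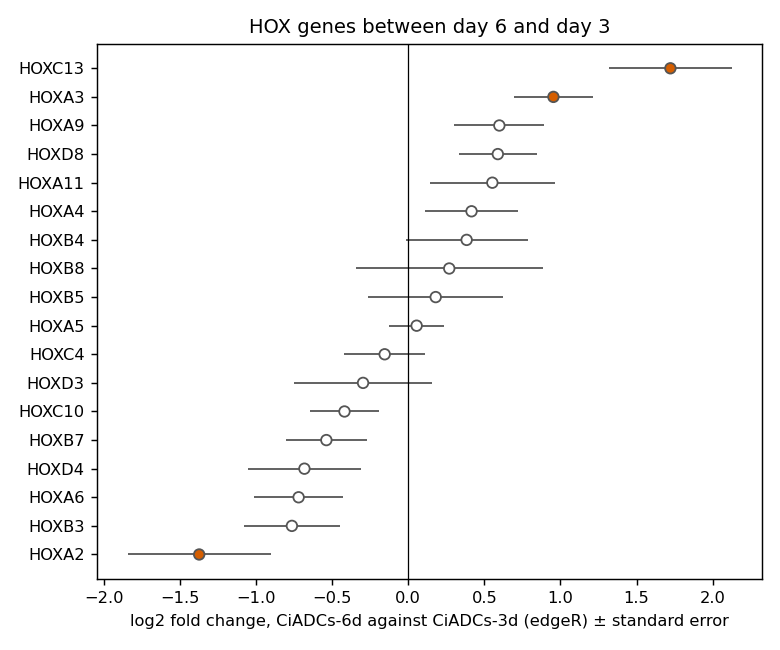
Log2 fold change of CiADCs-6d against CiADCs-3d with its standard error (horizontal axis) for 18 tested HOX genes, sorted by value; filled points had an adjusted p under 0.05. HOXC13 stood highest at 1.72, HOXA2 lowest at -1.37, and HOXA3 was filled at 0.95.

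HOX proteins bind DNA together with TALE homeodomain cofactors of the PBX, MEIS and PKNOX families. All 9 listed cofactors were tested. In CiADCs-3d, PBX4, MEIS3 and PKNOX2 were among those that rose against BEFs and PKNOX1 fell, with a median log2 fold change of 0.34 over the list. In CiADCs-6d, PBX4 and PKNOX2 rose, with a median of 0.29. Over all tested genes the medians were 0.01 and 0.03. Of the 9, 4 were called higher and 1 lower on day 3, where 18.2% and 9.94% of all tested genes were. On day 6, 2 of the 9 were called higher, against 21.9% of all tested genes. PKNOX2 averaged 55.2 ± 2.91 FPKM on day 3 and 39.1 ± 3.40 on day 6, against 7.96 ± 0.72 in BEFs, with log2 fold changes of 2.85 ± 0.10 (adjusted p = 4.87e-10) and 2.40 ± 0.10 (adjusted p = 1.53e-09). MEIS3 rose by log2 1.17 ± 0.16 on day 3 (adjusted p = 4.09e-05), and PBX2, at 15.3 FPKM in CiADCs-3d and 18.9 in BEFs, passed the adjusted p at -0.31 ± 0.12 (0.0461). PBX4 rose by log2 2.16 ± 0.22 and 2.41 ± 0.22 in the 2 comparisons, and PKNOX1 fell, at log2 -1.29 ± 0.16 on day 3. The summed FPKM of the list was 156 to 183 on day 3 and 125 to 134 on day 6, against 85.5 to 87.4 in BEFs. PKNOX2 made up much of this rise. The cofactors went both ways: at the adjusted p alone 5 stood higher and 3 lower on day 3, and 4 and 2 on day 6.

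Of 28 Polycomb genes, 3 rose in CiADCs-3d (CBX6, CBX7 and PHC2) and 4 fell (EZH2, RBBP7, PHF19 and CBX2), where 18.2% of all tested genes were called higher and 9.94% lower. In CiADCs-6d CBX6, CBX7 and PHC2 were among those that rose and EZH2, RBBP7, PHF19, RNF2 and CBX2 fell. The list's median log2 fold change was -0.21 and 0.02, against 0.01 and 0.03 over all tested genes. EZH2, the methyltransferase that places the silencing mark on histone H3, fell, at log2 -1.89 ± 0.22 in CiADCs-3d (adjusted p = 1.08e-05) and -1.28 ± 0.21 in CiADCs-6d (adjusted p = 0.000176). Its partner PHF19 fell, at log2 -2.42 ± 0.10 and -2.30 ± 0.10. Among the CBX readers of that mark, CBX7 rose by log2 1.59 ± 0.12 and 1.90 ± 0.12 and CBX2 fell, at log2 -1.48 ± 0.14 and -1.95 ± 0.14. PHC2 averaged 163 ± 27.7 FPKM on day 3 and 185 ± 26.8 on day 6, against 73.2 ± 4.91 in BEFs. RBBP7 and RBBP4, histone-binding subunits shared with other complexes, had log2 fold changes of -1.01 ± 0.11 and -0.55 ± 0.09 on day 3 and -1.36 ± 0.11 and -0.83 ± 0.09 on day 6, RBBP4 short of the fold limit.

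A list of 16 genes held the Trithorax complexes and the demethylases of K27 on histone H3. In CiADCs-6d KDM6B, a demethylase that removes the Polycomb mark, rose by log2 1.37 ± 0.13 (adjusted p = 1.18e-06), and DPY30, a core subunit of the Trithorax methyltransferases, fell, at log2 -1.25 ± 0.15 (adjusted p = 1.16e-05). At the adjusted p alone, 2 stood higher and 10 lower on day 3, and the list median was -0.39, while of all tested genes 30.9% were higher and 29.1% lower. WDR5, ASH2L and PSIP1 were among the lower ones, at log2 -0.43 ± 0.12, -0.72 ± 0.10 and -0.47 ± 0.11. The summed FPKM of the list was 143 to 145 on day 3 and 152 to 167 on day 6, against 186 to 192 in BEFs.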

How the data were processed

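RNA sequencing of 9 samples was used. After alignment and counting the authors deposited 1 table with, per gene and sample, an expected count (estimated reads, not normalized) and an FPKM value scaled to gene length and library size. RSEM, StringTie 1.3.1, HISAT2 2.2.4 and fastp 0.18.0 are listed in the labels with no role, and the methods name TopHat 2.1.1 and HTSeq 0.6.1. The build and the use of strand are not given in the sources used here, so no coordinates are printed. Of the table's columns of per-sample values, 0 were left unused.

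Counts were rounded, filtered with filterByExpr (minimum count 10, minimum total 15; 14020 genes kept, 7492 removed), scaled by TMM and tested with edgeR 4.0.16 (quasi-likelihood, all 9 samples, 1 coefficient per group) in R 4.3.3. Genes were called where the Benjamini-Hochberg adjusted p was under 0.05 and the log2 fold change 1 or more in size. The SE is the log2 fold change divided by the root of the F statistic. Ratios of small counts carry exact 95% intervals, which cover counting error only, as do floors of 3 counts. Tables and figures used Python 3.11.15. The fit was tested on simulated data.

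HOX rows are named, and up to 4 members of each other list, those with the highest mean FPKM at an adjusted p under 0.05, plus any count of 5 or fewer by name. List genes given beyond this were chosen after their values were seen. Lists were matched by NCBI Gene ID to RefSeq symbols (183 of 185 entries). The members and lists were chosen with earlier results of these data known. Some genes, 1 of them a tested member, are counted in the totals but not reported here by name.

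Alternatives were DESeq2 1.42.0, other scalings and filters, limma 3.58.1 on log2(FPKM + 1) or log2(FPKM + 0.1), only the groups compared, a replicate block and each sample left out. Leaving out both CiADCs samples numbered 1 and summing overlapping genes were added after the data were seen.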

Additional observations from a re-analysis of the deposited data

Results flagged for a closer look

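For 6 HOX genes the change since day 0 differed between the days, by the direct edgeR test of CiADCs-6d against CiADCs-3d at an adjusted p under 0.05. HOXA2 was lower on day 6 by a log2 fold change of -1.37 (adjusted p = 0.0472). HOXA3 was higher on day 6 at 0.95 (adjusted p = 0.0186). HOXA7 was lower at -1.02 (adjusted p = 0.0110). HOXB6 was lower at -0.78 (adjusted p = 0.00988). HOXC9 was lower at -0.70 (adjusted p = 0.0236). HOXC13 was higher at 1.72 (adjusted p = 0.00932).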

How the results depend on the processing

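The number of HOX genes called, 8, 12 and 2 for CiADCs-3d and CiADCs-6d against BEFs and for CiADCs-6d against CiADCs-3d, depended most on the filter and on the unit. With at least 10 counts in every sample, which left 9 of the members tested, it was 4, 4 and 0. With limma on log2(FPKM + 1), which tested 10 members, it was 2, 4 and 0, with the same counts without a filter. With log2(FPKM + 0.1) it was 5 and 6 against BEFs. Where the last comparison gave 0, 3, 5 and 9 members had an unadjusted p under 0.05 (edgeR, limma and limma without a filter), and DESeq2 called 2. In that comparison library totals alone gave 1 and only the groups compared gave 1. Leaving out both CiADCs samples numbered 1, chosen after seeing the data, gave 10, 13 and 4. Leaving out each sample in turn gave 7 to 10, 10 to 14 and 1 to 2.

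No called HOX gene of those reported changed direction under an alternative. Of those not called, in CiADCs-3d against BEFs, leaving out both CiADCs samples numbered 1 gave log2 fold changes of 0.13 for HOXA2 and -0.051 for HOXB8, and leaving out single samples gave -0.48 to 0.13 for HOXA2 and -0.047 to 1.47 for HOXB8. In CiADCs-6d against BEFs, HOXD3 was at -0.29 without both, and leaving out single samples gave -0.29 to 0.33 for HOXD3, -0.19 to 0.28 for HOXC8 and -0.0032 to 0.59 for HOXB3. In CiADCs-6d against CiADCs-3d, HOXC6 was at 0.0125 with library totals, 0.12, 0.17 and 0.12 with limma at a pseudocount of 1, of 0.1 and of 1 without a filter, and 0.0142 without both samples numbered 1. HOXA5 was at -0.0006 with upper-quartile scaling. Leaving out single samples gave -0.17 to 0.073 for HOXC6, -0.12 to 0.16 for HOXA5, -0.078 to 0.61 for HOXD9, -0.18 to 0.40 for HOXB5, -0.0089 to 0.57 for HOXB4 and -0.11 to 0.72 for HOXB8. The cause was not tested. Most members had under 100 counts per library, which limits the precision of their fold changes.

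The replicate block gave 9, 11 and 1 called HOX genes. Same-numbered samples of 2 groups deviated from their group means with correlations of -0.03 to 0.017, 0.008 to 0.145 and -0.372 to -0.131 in the 3 comparisons. With 3 samples a group this cannot decide whether the numbers pair the samples, and no source used here says so.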

Other observations

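Other factors that mark position were read beside the HOX genes. Of 33 factors of the head and ear found in the table, 22 were tested, and in CiADCs-3d 6 rose and 4 fell (DLX1, MSX2, BARX1 and PRRX1), while 9 rose and 7 fell in CiADCs-6d. Of all tested genes, 18.2% were called higher and 9.94% lower in CiADCs-3d, and 21.9% and 13.4% in CiADCs-6d. The median log2 fold change was 0.03 and 0.44, against 0.01 and 0.03 over all tested genes. PRRX1, a homeobox gene of the mesenchyme of the face and limb, averaged 154 ± 34.4 FPKM on day 3 and 75.5 ± 9.54 on day 6, against 316 ± 3.49 in BEFs. It fell, at log2 -1.04 ± 0.15 (edgeR adjusted p = 6.45e-05) and -2.35 ± 0.15 (adjusted p = 5.83e-08). Its paralogue PRRX2 averaged 129 ± 16.7 and 151 ± 5.58 FPKM, against 73.1 ± 0.58 in BEFs, and rose on day 6 by log2 1.01 ± 0.11 (adjusted p = 5.71e-06). SIX2 rose by log2 2.54 ± 0.20 and 3.37 ± 0.20. The DLX genes, which pattern the jaw and middle ear, gave DLX3, DLX4, DLX5 and DLX6 among those that rose in both comparisons, which share the BEFs samples.

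Of 20 limb and trunk factors 13 were tested. In CiADCs-3d TBX3, EN1 and MEOX1 rose and TBX18 and MEOX2 fell, and in CiADCs-6d TBX3, EMX2, EN1 and MEOX1 rose and TBX15 and MEOX2 fell. The median log2 fold change of the 13 was -0.11 and 0.04, and their shares called are to be read against the same background. MEOX2 averaged 3.95 ± 0.68 FPKM on day 3 and 4.23 ± 0.61 on day 6, against 13.4 ± 0.78 in BEFs. Of 14 genes next to the HOX clusters 11 were tested. SNX10 rose by log2 1.41 ± 0.28 on day 3, and CBX1 fell, at log2 -1.28 ± 0.14 and -1.31 ± 0.14. CDX1, CDX2, CDX4, PDX1, GSX1 and GSX2, of the families related to the HOX genes, had no count in any library.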
